A study of Mus musculus with 12 samples.

Results

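The 9 genes described here encode transcription factors that set up and maintain the skeletal muscle fate: Pax7, Lbx1, the myogenic regulatory factors Myf5, Myod1, Myf6 and Myog, and the MEF2 factors Mef2a, Mef2c and Mef2d. They were chosen by name, and all 9 had a row among the 12752 genes of the count table. The RNA came from the tibialis anterior, a fast muscle of the lower leg, of male C57BL/6 mice injected when 8 weeks old. Every muscle received AAV:TET, a vector for the doxycycline switch, together with an empty vector or with AAV:Dux, whose Dux transgene is induced by doxycycline. The 4 groups were the empty vector on normal chow (EV), the empty vector on doxycycline chow (EV_DOX), the Dux vector on normal chow (DUX) and the Dux vector on doxycycline chow (DUX_DOX), with 3 libraries each. Doxycycline chow held 600 mg/kg and was started 7 days after injection, and the labels name 2 or 7 days of it without saying which applies to these libraries. Per the labels the 2 vectors went into opposite limbs. They do not say which libraries share a mouse, how many fibres took up vector, or whether the libraries of a group are separate animals. P-values therefore measure the spread between these libraries, which may be technical.

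Pax7 marks satellite cells, the stem cells of muscle, and Lbx1 is a homeobox factor known from the migrating muscle precursors of the limb. The 4 myogenic regulatory factors are basic helix-loop-helix proteins that bind E-boxes together with E proteins. Myf5 and Myod1 commit cells to the lineage, Myog drives terminal differentiation, and Myf6, also called MRF4, is the member most associated with mature fibres. In adult muscle Myod1 and Myog are known to rise with denervation and regeneration. MEF2 factors bind an A/T-rich element and act with the myogenic regulatory factors on muscle promoters, the Myog promoter among them.

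Promoter windows are shown because these factors are known to bind E-boxes and MEF2 elements in each other's promoters. The reference table, from RefSeq on GRCm38.p6, gave windows of 250 bases before and 50 bases after a gene start for 6 of the 9 genes, and not for Myod1, Myf6 and Lbx1. An E-box was searched as CANNTG and the MEF2 core as TANNNNTA with A or T at each N, on both strands, and capitals mark the matches. The 3 windows shown are those of Myog, the gene with the largest rise in DUX_DOX, of Mef2a, the MEF2 gene with a call there, and of Myf5, a regulatory factor with no call. The Myog window lies at chr1:134289754-134290053 (plus strand), that of Mef2a at chr7:67372809-67373108 (minus strand) and that of Myf5 at chr10:107486085-107486384 (minus strand).
Myog: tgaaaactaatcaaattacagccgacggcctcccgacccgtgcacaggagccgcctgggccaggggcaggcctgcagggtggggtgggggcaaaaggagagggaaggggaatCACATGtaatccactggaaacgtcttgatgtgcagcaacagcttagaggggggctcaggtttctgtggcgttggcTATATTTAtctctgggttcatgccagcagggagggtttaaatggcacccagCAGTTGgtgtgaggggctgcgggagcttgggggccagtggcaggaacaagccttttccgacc
Mef2a: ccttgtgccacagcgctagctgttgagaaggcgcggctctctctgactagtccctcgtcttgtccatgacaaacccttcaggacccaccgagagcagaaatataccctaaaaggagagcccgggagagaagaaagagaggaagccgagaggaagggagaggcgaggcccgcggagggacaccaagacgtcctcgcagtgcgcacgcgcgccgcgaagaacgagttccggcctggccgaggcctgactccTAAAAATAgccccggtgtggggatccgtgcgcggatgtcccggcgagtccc
Myf5: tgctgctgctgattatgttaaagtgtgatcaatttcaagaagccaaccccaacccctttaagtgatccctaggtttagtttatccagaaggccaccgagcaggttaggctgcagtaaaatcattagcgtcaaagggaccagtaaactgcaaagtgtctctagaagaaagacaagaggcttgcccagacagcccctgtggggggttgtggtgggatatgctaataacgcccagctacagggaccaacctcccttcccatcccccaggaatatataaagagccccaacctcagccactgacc
The Myog window held 2 E-boxes, CACATG from position -138 and CAGTTG from position -12, and the MEF2 core TATATTTA from position -63. Positions are counted from the RefSeq gene start of each window. For Myog that start lies downstream of 134289989, the gene start given below, so CAGTTG falls inside the printed gene span. The Mef2a window held no E-box and the MEF2 core TAAAAATA from position -1. The windows of Myf5, Mef2d and Pax7 held neither motif. Of the 3 Mef2c windows, 1 held 2 E-boxes and a MEF2 core, 1 held a single E-box and 1 held neither. Of all 32851 windows of this length, 72.3% held an E-box, 9.32% the MEF2 core and 7.01% both. The motifs do not overlap in the windows shown, and a match is a stretch of letters, not a measured binding site.

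The libraries held 11880593 to 13811999 counts. CPM, the usual depth-scaled count, uses library totals after TMM scaling and is given with the SD over 3 libraries. Log2 fold changes carry the standard error (SE) of the fit, and adjusted p-values are Benjamini-Hochberg values of edgeR's quasi-likelihood test over 12751 genes, called at 0.05. Fast fibre markers summed to 148400 to 197000 CPM over all libraries, and none of them was at 0. A set of 16 Dux target genes, with 14 symbols, had 2 counts over the EV libraries, 7 over EV_DOX, 20 over DUX and 17471 over DUX_DOX, of which AW822073 made up 0, 1, 3 and 143. No gene with a mean count under 10 is in the count table, so these genes have rows only through their DUX_DOX counts. The difference in their counts is therefore not a test of induction. Counts of Dux are not analysed here. In DUX_DOX against EV_DOX, 25.3% of all genes were called, 14.9% higher and 10.3% lower.

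Induced Dux was accompanied by higher Myog, Myf6 and Myod1 and by lower Lbx1 and Mef2a than in EV_DOX, so that 3 of the 9 genes rose and 2 fell. The other 4 genes, Pax7, Myf5, Mef2c and Mef2d, did not pass the test. The 5 calls of 9 stand beside 25.3% of all genes, or 3224 genes. The set was chosen with earlier results of these data known, so its share of calls is not a test. Without DUX_DOX 3 the test called 2109 genes, and 3 of the 9. The libraries of the 2 groups did not overlap for the same 5 genes, nor for 38.7% of all genes, 21.4% higher and 17.3% lower, and the median log2 fold change of the 9 was -0.17, against -0.005 over all genes. In whole muscle, fewer cells of a type and less RNA per cell cannot be told apart. This comparison asks what the induced transgene changes when both muscles are on doxycycline chow.

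**Figure D1:**
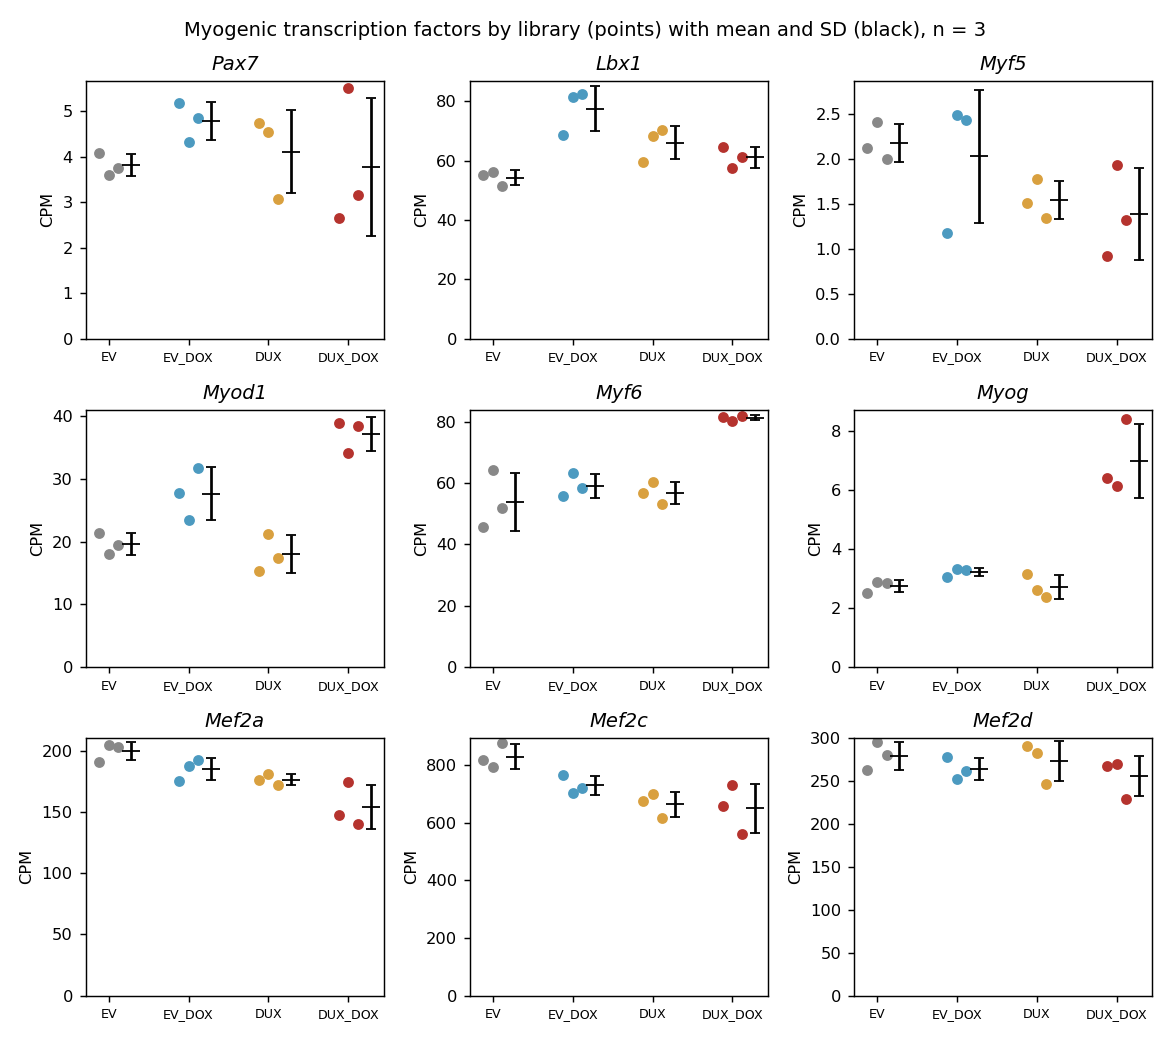
CPM of each gene (y axes from 0) in the 12 libraries by group (x axis), with points for libraries and black bars for mean and SD. The Myog, Myf6 and Myod1 points of DUX_DOX lie above those of the other 9 libraries, and the Pax7 and Myf5 points of DUX_DOX overlap those of EV_DOX.

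Myog (ENSMUSG00000026459, chromosome 1, 134289989 to 134292548 in GRCm38), the differentiation factor, had the largest change of the 9. It stood at 2.51, 2.89 and 2.84 CPM in EV, at 3.07, 3.33 and 3.29 CPM in EV_DOX, at 3.16, 2.62 and 2.39 CPM in DUX, and at 6.40, 6.15 and 8.42 CPM in DUX_DOX. The 3 DUX_DOX libraries were the highest of all 12, and the other groups lay close together. Myog rose by 1.11 on the log2 scale against EV_DOX (SE 0.17, adjusted p = 0.000327), a 2.16-fold rise. Against DUX it rose by 1.36 (SE 0.18, adjusted p = 7.12e-05). The level stayed low, with 84, 86 and 109 counts in the DUX_DOX libraries.

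Myf6 (ENSMUSG00000035923, chromosome 10, 107492853 to 107494737), the regulatory factor of mature fibres, rose less but with little spread. Its levels were 45.6, 64.2 and 52.0 CPM in EV, 55.7, 63.3 and 58.3 CPM in EV_DOX, 56.7, 60.2 and 53.2 CPM in DUX and 81.6, 80.3 and 81.9 CPM in DUX_DOX. Every DUX_DOX library lay above every other library. The rise was 1.38-fold against EV_DOX (log2 fold change 0.46, SE 0.11, adjusted p = 0.00566) and 1.43-fold against DUX (0.52, SE 0.11, adjusted p = 0.00226). Myf6 and Myog were called in each of the 20 alternative fits of DUX_DOX against EV_DOX.

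Myod1 (ENSMUSG00000009471, chromosome 7, 46376474 to 46379099), the lineage factor, rose in DUX_DOX against both EV_DOX and DUX, by different amounts. It had 21.4, 18.0 and 19.5 CPM in EV, 27.7, 23.5 and 31.8 CPM in EV_DOX, 15.3, 21.2 and 17.4 CPM in DUX and 38.9, 34.0 and 38.3 CPM in DUX_DOX. The DUX_DOX libraries were again the highest, and those of EV_DOX lay between them and the muscles on normal chow. Against DUX the rise was 2.06-fold (log2 fold change 1.04, SE 0.13, adjusted p = 5.69e-05). Against EV_DOX it was 1.34-fold (0.43, SE 0.13, adjusted p = 0.0245), with adjusted p from 0.0129 to 0.129 over the alternatives. The call was lost when EV_DOX 2 (0.29, adjusted p = 0.129), DUX_DOX 1 (0.39, adjusted p = 0.0733) or DUX_DOX 3 (0.40, adjusted p = 0.0817) was left out.

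Myf5 (ENSMUSG00000000435, chromosome 10, 107482908 to 107486134) is the close neighbour of Myf6, with 6718 bases between the 2 genes, but showed no matching rise. It had 2.12, 2.40 and 1.99 CPM in EV, 1.17, 2.48 and 2.43 CPM in EV_DOX, 1.5, 1.77 and 1.34 CPM in DUX and 0.914, 1.93 and 1.31 CPM in DUX_DOX. DUX_DOX overlapped EV_DOX and DUX, the EV libraries lay above DUX and DUX_DOX, and the libraries held 12 to 32 counts. The log2 difference to EV_DOX was -0.53 (SE 0.32, adjusted p = 0.245), with a 95% interval from -1.21 to 0.16. The log2 fold change of Myf6 lay outside this interval, but the difference between the 2 genes was not tested.

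Because each regulatory factor has 1 coding transcript in the annotation, their levels can be set side by side per kb of exon. Myf6 was the most abundant, with 42.7 CPM per kb in EV and 64.3 in DUX_DOX. Myod1 followed with 10.5 and 19.9, Myog with 1.84 and 4.68, and Myf5 with 1.04 and 0.666 CPM per kb. Neighbours in this order did not overlap within any group. Of the summed level of the 4 factors, Myog made up 3.28% (SD 0.228) in EV, 3.33% (SD 0.0338) in EV_DOX, 3.20% (SD 0.508) in DUX and 5.21% (SD 0.813) in DUX_DOX. The share of Myf5 was 1.86% (SD 0.138), 1.49% (SD 0.499), 1.29% (SD 0.0881) and 0.747% (SD 0.295) in the same order, and that of Myf6 lay between 71.8% and 78.6% in the 4 group means. The sum itself was 56.1 CPM per kb (SD 6.78) in EV, 64.8 (SD 2.77) in EV_DOX, 57.1 (SD 4.09) in DUX and 89.6 (SD 2.44) in DUX_DOX. These shares were not tested.

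**Figure D2:**
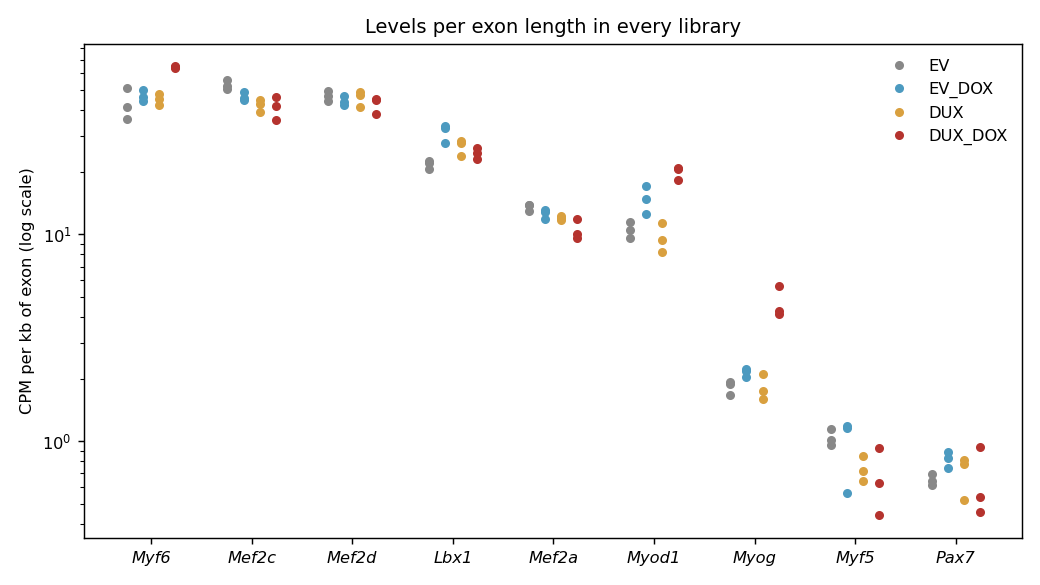
CPM per kb, over all exonic bases, on a log scale (y axis) for each gene (x axis) in the 12 libraries, coloured by group. Myf6, Mef2c and Mef2d lie highest and Myf5 and Pax7 lowest, near 1 CPM per kb.

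The rank of the MEF2 genes among the others depended on the length used. Mef2c had 52.7 CPM per kb in EV over all its exonic bases, and 782 by the median length of its 27 coding transcripts, so no order between MEF2 and regulatory factors is given. Pax7 also changed with the length, from 0.651 to 1.01 CPM per kb in EV, and its order against Myf5 is not given. Lbx1, with 1 coding transcript, stood at 21.9 CPM per kb in EV, between Myf6 and Myod1 in every group.

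Of the MEF2 genes, Mef2a (ENSMUSG00000030557, chromosome 7, 67231163 to 67372858) was called lower in DUX_DOX. It had 191, 205 and 203 CPM in EV, 175, 188 and 192 CPM in EV_DOX, 176, 181 and 172 CPM in DUX and 148, 174 and 141 CPM in DUX_DOX. DUX_DOX 2 lay among the DUX libraries and just below EV_DOX, and the other 2 DUX_DOX libraries were the lowest of all. Mef2a fell by 0.26 on the log2 scale against EV_DOX (SE 0.09, adjusted p = 0.0376). The call was lost in 9 of 20 alternatives: without EV_DOX 2, EV_DOX 3, DUX_DOX 1, DUX_DOX 3 or any 1 of the 3 DUX libraries, with only the groups compared and with the replicate block within chow. Over all 20, adjusted p ran from 0.00754 to 0.148. Mef2a shares 302 exonic bases, 2.06% of its own, with Lysmd4 on the opposite strand, whose log2 fold change was -0.15 (adjusted p = 0.341), and whether counting used strand is not given in the sources used here.

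Mef2c (ENSMUSG00000005583, chromosome 13, 83504034 to 83667080), the MEF2 gene with the most counts, had 816, 792 and 877 CPM in EV, 766, 704 and 719 CPM in EV_DOX, 674, 699 and 615 CPM in DUX and 658, 729 and 559 CPM in DUX_DOX. The EV libraries were the highest of the 12, and DUX_DOX spanned the whole range of DUX. The log2 fold change in DUX_DOX was -0.17 against EV_DOX (SE 0.10, adjusted p = 0.243, 95% interval -0.39 to 0.05). Mef2d (ENSMUSG00000001419, chromosome 3, 88142372 to 88172086) had 263, 295 and 280.3 CPM in EV, 278, 253 and 262 CPM in EV_DOX, 291, 282 and 247 CPM in DUX and 268, 270.0 and 229 CPM in DUX_DOX. All 4 groups overlapped, with a log2 fold change of -0.05 against EV_DOX (SE 0.09, adjusted p = 0.754, 95% interval -0.25 to 0.15). The antisense gene 1700113A16Rik overlaps Mef2d and is not analysed here.

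Lbx1 (ENSMUSG00000025216, chromosome 19, 45232684 to 45235812), the homeobox factor, was highest on doxycycline chow without Dux. It had 55.2, 56.4 and 51.5 CPM in EV, 68.8, 81.4 and 82.6 CPM in EV_DOX, 59.7, 68.4 and 70.4 CPM in DUX and 64.7, 57.4 and 61.3 CPM in DUX_DOX. All EV_DOX libraries but the lowest stood above the rest, and DUX_DOX lay above EV and below EV_DOX. Lbx1 fell by 0.34 against EV_DOX on the log2 scale (SE 0.09, adjusted p = 0.0137), and not against DUX, where the log2 fold change was -0.11 (SE 0.09, adjusted p = 0.371). Leaving out EV_DOX 3 (-0.30, adjusted p = 0.0573) or DUX_DOX 2 (-0.31, adjusted p = 0.0506) ended the call against EV_DOX, and the alternatives ran from 0.00367 to 0.0573.

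Pax7 (ENSMUSG00000028736, chromosome 4, 139737062 to 139833528), the satellite cell factor, had 4.08, 3.61 and 3.76 CPM in EV, 5.18, 4.34 and 4.85 CPM in EV_DOX, 4.74, 4.54 and 3.06 CPM in DUX and 2.67, 5.51 and 3.17 CPM in DUX_DOX. DUX_DOX held both the lowest and the highest of the 12 libraries. The log2 fold change against EV_DOX was -0.34 (SE 0.24, adjusted p = 0.334, 95% interval -0.86 to 0.19). Without DUX_DOX 2 it was -0.72 (adjusted p = 0.0341), the 1 alternative of 20 with a call, in a range from 0.0341 to 0.723. Pax7 had 35 to 77 counts per library.

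**Figure D3:**
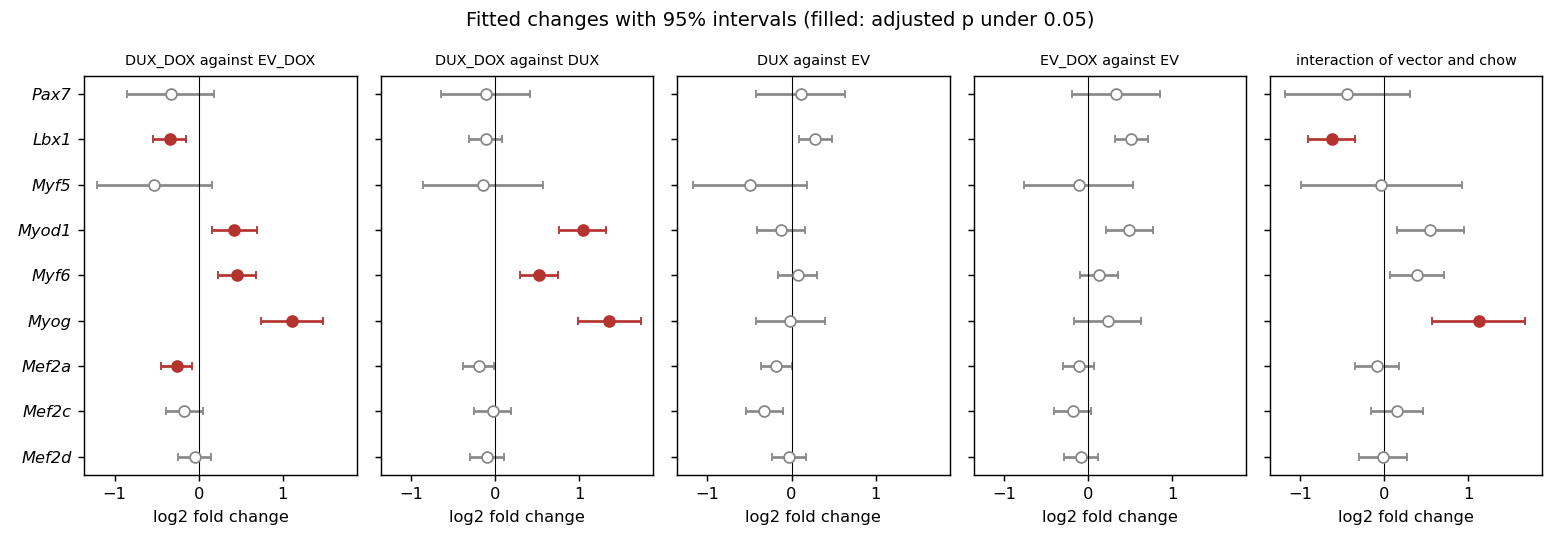
Log2 fold changes (x axes) of the 9 genes with 95% intervals in the 4 comparisons and the interaction, with filled red points for adjusted p under 0.05. Myog, Myf6 and Myod1 are filled in both comparisons of DUX_DOX, and no gene is filled in DUX against EV or EV_DOX against EV.

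The comparison of DUX_DOX with DUX asks what doxycycline chow changes in muscle that carries the Dux vector. Myog, Myod1 and Myf6 rose and the other 6 genes were not called, beside 29.6% of all genes called, 16.5% higher and 13.1% lower. The libraries did not overlap for these 3, nor for 48.6% of all genes, with 26% of all genes higher in DUX_DOX and 22.6% lower. Mef2a stood at -0.19 on the log2 scale (adjusted p = 0.106). It was called when DUX_DOX 2 was left out (-0.30, adjusted p = 0.0209), and the alternatives ran from 0.0209 to 0.326. The log2 fold changes of the other genes not called lay between -0.14 for Myf5 and -0.03 for Mef2c. The 3 rises were called in all 19 alternatives of this comparison. Both comparisons use the same DUX_DOX libraries.

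Without induction, none of the 9 genes passed the edgeR test. In DUX against EV edgeR called 0% of all genes, 2012 of which had an unadjusted p under 0.05. The count of called genes was 0 in limma-voom, 153 in the DESeq2 Wald test and 118 in edgeR without EV 2. The libraries did not overlap for 4 of the 9, Lbx1 higher and Myf5, Mef2a and Mef2c lower, nor for 22.9% of all genes, 11.3% higher and 11.6% lower. At an unadjusted p under 0.05, Mef2c and Lbx1 were the only 2 of the 9. The Mef2c difference was -0.32 on the log2 scale (SE 0.10, adjusted p = 0.214). DESeq2 called Mef2c at adjusted p = 0.0478, and the alternatives ran from there to 0.525. For Lbx1 the difference was 0.28 (SE 0.09, adjusted p = 0.215), and for Mef2a it was -0.18 (adjusted p = 0.331). The log2 fold changes of Myog, Mef2d, Myf6, Pax7 and Myod1 lay between -0.12 and 0.11. That of Myf5 was -0.49, with a 95% interval from -1.17 to 0.18.

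On doxycycline chow without Dux, Lbx1 and Myod1 had the largest values of the 9, and neither was called by edgeR. In EV_DOX against EV edgeR called 0.0392% of all genes, or 5 genes, and 0 to 10 with a library left out. The libraries did not overlap for 5 of the 9, with Lbx1, Myod1, Pax7 and Myog higher and Mef2c lower in EV_DOX. The same held for 12.1% of all genes, 5.69% higher and 6.45% lower. At an unadjusted p under 0.05, Lbx1 and Myod1 were the only 2 of the 9. The Lbx1 difference was 0.51 on the log2 scale (SE 0.09, adjusted p = 0.0991), or 1.43-fold. DESeq2 called Lbx1 (adjusted p = 0.0019), as did edgeR when EV_DOX 1 was left out (0.59, adjusted p = 0.0297), and the alternatives ran from 0.0019 to 0.633. For Myod1 the difference was 0.49 (SE 0.13, adjusted p = 0.414), with 0 calls in 19 alternatives. The log2 fold changes of the other 7 genes lay between -0.18 for Mef2c and 0.33 for Pax7.

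The interaction asks whether the difference between the vectors itself differed between the chows. It was called for 10.4% of all genes, 6.97% positive and 3.43% negative, and for 2 of the 9, in opposite directions. The 1326 genes called became 2148 without EV_DOX 1, and 813 to 881 without EV 3, EV_DOX 3, DUX_DOX 2 or any 1 DUX library. For Myog it was 1.13 (SE 0.26, adjusted p = 0.0139), the vector difference being -0.01 on normal chow and 1.11 on doxycycline. For Lbx1 it was -0.63 (SE 0.13, adjusted p = 0.00753), from 0.28 on normal chow to -0.34 on doxycycline. The interaction of Myod1 was 0.55 (SE 0.19, adjusted p = 0.0727) and that of Myf6 0.39 (SE 0.15, adjusted p = 0.109). With EV_DOX 3 (adjusted p = 0.0451) or DUX 2 (adjusted p = 0.0402) left out Myod1 was called, and its alternatives ran from 0.0402 to 0.172. With EV 1 left out Myf6 was called (adjusted p = 0.0419), and its alternatives ran up to 0.217.

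Of 20 E proteins and inhibitors of basic helix-loop-helix factors, 4 rose and 1 fell in DUX_DOX against EV_DOX, with a median log2 fold change of 0.11. These 5 calls of 20 are near the share of all genes, 25.3%, with 14.9% higher and 10.3% lower. Id4, of the Id proteins that sequester E proteins, had a mean of 2.85 CPM in DUX_DOX (SD 0.688) and 0.758 CPM in EV_DOX (SD 0.258), a rise of 1.90 (SE 0.30, adjusted p = 0.000377). Id2, another Id gene, also rose (0.54, adjusted p = 0.0462), but was not called against DUX (0.28, adjusted p = 0.262). Id1 (0.29, adjusted p = 0.458) and Id3 (0.13, adjusted p = 0.611) were not called against EV_DOX. Id1, Id2 and Id3 were named after their values were seen. The E protein gene Tcf12 rose by 0.41 (adjusted p = 0.0283) and the repressor gene Snai1 by 1.18 (adjusted p = 0.0395), whereas the E protein gene Tcf4 fell by 0.37 (adjusted p = 0.0336). The calls of Tcf12, Snai1 and Tcf4 were lost in 5, 8 and 4 of 20 alternatives, up to adjusted p = 0.115, 0.131 and 0.141. The count of 5 was 2 or 3 without EV_DOX 2, EV_DOX 3, DUX 2 or any 1 DUX_DOX library.

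Of 23 cofactors and repressors of the regulatory and MEF2 factors, 4 rose and 8 fell, beside 25.3% of all genes called, with a median of -0.10. This list was chosen with earlier results of these data known, so its share of calls is not a test. The Notch coactivator gene Maml1 (0.73, SE 0.13, adjusted p = 0.00134), the deacetylase gene Sirt1 (0.70, SE 0.15, adjusted p = 0.00409) and the kinase gene Camk2d (0.38, SE 0.09, adjusted p = 0.00562) rose. Kat2b, an acetyltransferase gene, had 62.1 CPM in DUX_DOX (SD 2.99) and 85.0 CPM in EV_DOX (SD 3.55) and fell by 0.45 (SE 0.08, adjusted p = 0.000594). Camk2g fell by 0.38 (SE 0.08, adjusted p = 0.00469). Hdac4, a class II deacetylase that represses MEF2 and is known to act upstream of Myog in denervated muscle, fell by 0.49 (SE 0.12, adjusted p = 0.00909), and against DUX it stood at -0.17 (adjusted p = 0.324). The other class II genes on the list, Hdac5, Hdac7 and Hdac9, had log2 fold changes of 0.15, -0.12 and 0.27 against EV_DOX and were not called. Against DUX, Hdac5 was called higher (0.33, adjusted p = 0.0212) and Hdac9 was not called (-0.10, adjusted p = 0.626). With only the groups compared, 7 of the 23 were called.

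Of 20 other transcription factors of muscle, 2 rose and 3 fell, with a median of -0.04, and these 5 calls of 20 are also near the 25.3% of all genes. Tbx15, a T-box factor gene, had a mean of 194 CPM in DUX_DOX (SD 29.3) and 282 CPM in EV_DOX (SD 29.5), so that it fell by 0.54 (SE 0.11, adjusted p = 0.00218). Eya4, a transcriptional coactivator gene, fell by 0.48 (adjusted p = 0.0113) and Sox6, which represses slow fibre genes, by 0.46 (adjusted p = 0.0136), and both calls were lost without DUX_DOX 3 (adjusted p = 0.0563 and 0.0620). Vgll2, a cofactor of Tead proteins, rose by 0.27 (adjusted p = 0.0397) and Srf, the serum response factor gene, by 0.24 (adjusted p = 0.047). These 2 calls held in 9 and 3 of 20 alternatives, with adjusted p up to 0.182 and 0.156. The count of 5 was 1 to 3 without EV_DOX 2, EV_DOX 3, DUX 2 or DUX_DOX 3.

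**Figure D4:**
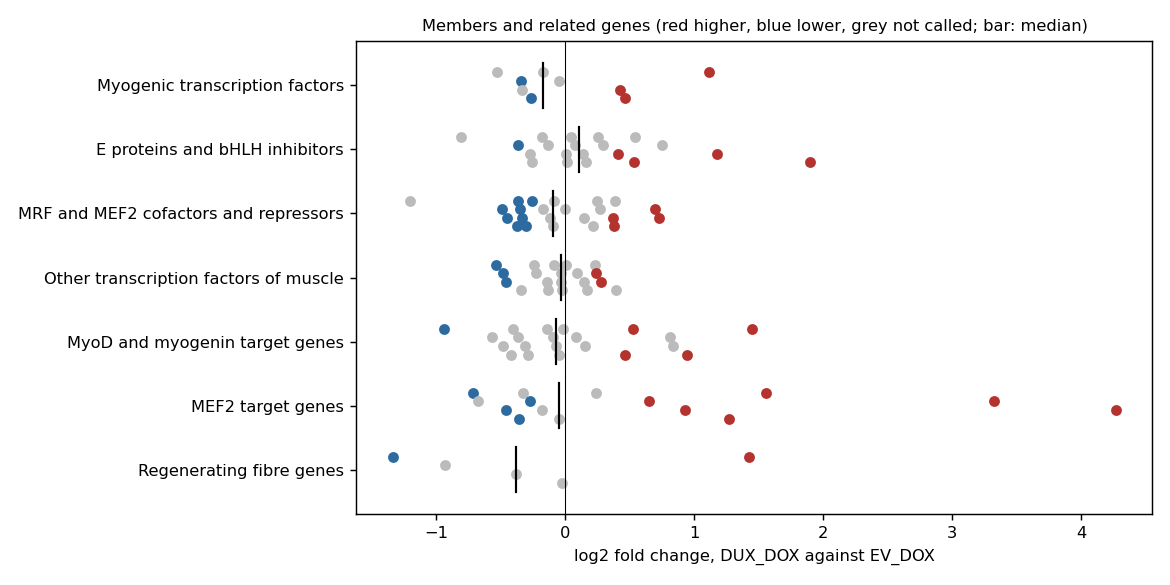
Log2 fold changes in DUX_DOX against EV_DOX (x axis) of the 9 genes and of 6 lists of related genes (y axis), in red where called higher, blue where called lower and grey where not called, with a bar at each median. The list medians lie between -0.38 and 0.11, and the largest rises are among the MEF2 target genes.

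Of 21 genes on the list of MyoD and myogenin targets, 4 rose and 1 fell, with a median log2 fold change of -0.08. These 5 calls of 21 are near the 25.3% of all genes called. Musk, the receptor kinase of the neuromuscular junction, had a mean of 19.2 CPM in DUX_DOX (SD 4.66) and 7.02 CPM in EV_DOX (SD 2.33), a rise of 1.45 (SE 0.22, adjusted p = 0.000252). Cdkn1a, the cell cycle inhibitor p21, rose by 0.94 (SE 0.25, adjusted p = 0.0128) and the intermediate filament gene Des by 0.46 (SE 0.11, adjusted p = 0.00717). Fbxo32, the ubiquitin ligase atrogin-1, fell by 0.94 (SE 0.19, adjusted p = 0.00233). The acetylcholine receptor gene Chrna1 stood at -0.02 (adjusted p = 0.953) and the cadherin gene Cdh15 at -0.05 (adjusted p = 0.752), both chosen after their values were seen. The count of 5 was 8 with upper-quartile factors and in DESeq2.

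On the list of 15 MEF2 targets, 6 rose and 4 fell, beside 25.3% of all genes called, with a median of -0.05. The list was chosen with earlier results of these data known, so its share of calls is not a test. Xirp1 and Xirp2, which encode actin-binding Xin-repeat proteins, rose by 4.27 (SE 0.17, adjusted p = 1.13e-09) and 1.56 (SE 0.12, adjusted p = 4.65e-07). Xirp1 had 2285 CPM in DUX_DOX (SD 159.9) and 118 CPM in EV_DOX (SD 7.46). Jun, an immediate early gene, rose by 1.27 (SE 0.08, adjusted p = 1.18e-07). Ppargc1a, which encodes the coactivator PGC-1alpha, fell by 0.71 (SE 0.12, adjusted p = 0.00059), Slc2a4, the insulin-responsive glucose transporter, by 0.46 (adjusted p = 0.0199) and Lmod3, an actin nucleator of thin filaments, by 0.36 (adjusted p = 0.0168). The last 2 calls were lost without EV_DOX 3, DUX_DOX 2 or DUX_DOX 3, up to adjusted p = 0.0806 and 0.0752.

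Genes of regenerating fibres gave no common direction. Of 10 symbols on the list 5 were measured, 1 rose and 1 fell, with a median of -0.38. Of all genes 25.3% were called, 14.9% higher and 10.3% lower. Myh8, the perinatal myosin, had a mean of 24.2 CPM in DUX_DOX (SD 5.59) and 9.0 CPM in EV_DOX (SD 4.60), a 2.68-fold rise (adjusted p = 0.0089). Actc1, cardiac actin, fell by 1.34 (SE 0.38, adjusted p = 0.0196), a call lost without EV_DOX 1, DUX_DOX 1 or DUX_DOX 3 (adjusted p up to 0.0793). Myh3, the embryonic myosin, chosen after its values were seen, stood at -0.93 on the log2 scale (adjusted p = 0.209). It had 12.2, 4.03 and 2.11 CPM in EV_DOX, with EV_DOX 1 far the highest, and 3.66, 2.93 and 3.09 CPM in DUX_DOX. Against DUX, Myh3 stood at 0.67 (adjusted p = 0.424), and the median of the list was also 0.67.

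In DUX_DOX against DUX the same lists gave 3 higher and 0 lower of 20 E proteins and inhibitors, 5 and 4 of 23 cofactors, 0 and 6 of 20 other factors, 5 and 2 of 21 MyoD and myogenin targets, 6 and 4 of 15 MEF2 targets and 1 and 0 of 5 regenerating fibre genes. In this comparison 29.6% of all genes were called, 16.5% higher and 13.1% lower. The calls of the E proteins and inhibitors (3 of 20) and of the regenerating fibre genes (1 of 5) are below that share. Those of the other factors (6 of 20) and of the MyoD and myogenin targets (7 of 21) are near it. All 6 calls among other factors were lower, however, beside 13.1% of all genes lower. The 6 calls among other factors were 1 to 7 with a library left out, those among E proteins and inhibitors 2 to 5, and 7 with only the groups compared.

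Markers of cell types were compared in DUX_DOX against EV_DOX, where 25.3% of all genes were called, 14.9% higher and 10.3% lower. The marker lists were chosen with earlier results of these data known. Of 14 macrophage markers 12 rose and 0 fell in DUX_DOX, and their summed level was 285 to 417 CPM there against 112 to 190 CPM in all other libraries. Cd68, a macrophage lysosomal protein, rose by 2.78 (SE 0.24, adjusted p = 1.26e-06). Of 17 satellite cell markers other than Pax7 and Myf5, 2 rose and 1 fell, and their sums overlapped between EV_DOX (470 to 618 CPM) and DUX_DOX (523 to 562 CPM). The 2 that rose were Sdc4, a syndecan (1.23, SE 0.12, adjusted p = 3.62e-06), and Vcam1, an adhesion molecule (0.91, SE 0.17, adjusted p = 0.0013). The 1 that fell was Chodl, a membrane lectin (-0.96, SE 0.31, adjusted p = 0.0369), named after its values were seen, and the median of the 17 was -0.14. Of 12 fast fibre markers 0 rose and 3 fell, with Actn3, the fast fibre actinin, at -0.50 (SE 0.13, adjusted p = 0.0112), and their sum was 148400 to 166500 CPM in DUX_DOX against 178800 to 195600 CPM in EV_DOX. The calls of the satellite cell markers (3 of 17) are below the share of all genes, and those of the fast fibre markers (3 of 12) are near it. All 3 fast fibre calls were lower, however, beside 10.3% of all genes lower, and the median of the 12 was -0.29. No marker of these lists was at 0 in any library. The part of these shifts in the values of the 9 genes was not tested.

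Of 14 endothelial markers 1 was called higher and 1 lower in DUX_DOX against EV_DOX, and of 7 slow fibre markers 0 and 1. Called higher were 2 of 10 fibro-adipogenic, 1 of 10 Schwann cell and 1 of 10 smooth muscle and pericyte markers, with 0 lower. In each of these lists the calls in either direction are a smaller share than the 25.3% of all genes, with 14.9% higher and 10.3% lower. The 8 tenocyte markers summed to 182 to 1038 CPM in EV, 133 to 969 in EV_DOX, 106 to 178 in DUX and 239 to 323 in DUX_DOX. The 7 slow fibre markers summed to 90.1 to 99.8 CPM in EV and 89.9 to 104 CPM in DUX. Their sums were 105 to 384 CPM in EV_DOX and 105 to 260 CPM in DUX_DOX. EV_DOX 2 and DUX_DOX 2 gave the high ends, with Myh7 at 116 and 69.3 CPM against 1.24 to 6.42 CPM in all others. The part of this in calls that changed without either library was not tested. Mitochondrial transcripts took 15.5% to 21.2% of the counts over all libraries. By group this was 17.1% to 18.4% in EV, 16.1% to 18.8% in EV_DOX, 18.8% to 21.2% in DUX and 15.5% to 17% in DUX_DOX.

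**Figure D5:**
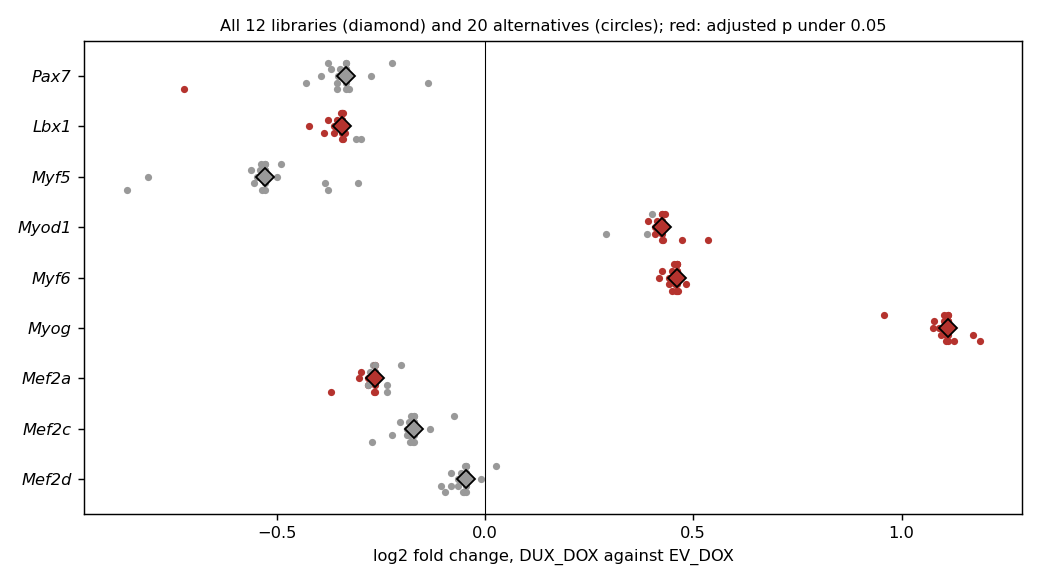
Log2 fold change in DUX_DOX against EV_DOX (x axis) of each gene (y axis) with all 12 libraries (diamonds) and in 20 alternative fits (circles), in red where adjusted p was under 0.05. Myog and Myf6 stay red throughout, and Mef2d is the gene with a value on either side of 0.

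Genes outside the set with the most similar profile were taken as those with the smallest root mean square difference in mean-centred log2 CPM over the 12 libraries, among 9044 genes with a mean of at least 5 CPM. For Myog these were Taf7 and Popdc3, both at a difference of 0.14, where the deviation of Myog from its own mean was 0.55. For Myf6 they were Tmem248 and Zdhhc18 (both 0.09, against 0.26 for Myf6), and for Myod1 they were Rhoc (0.19) and Bax (0.20), against 0.44. Mpst (0.09) and Pradc1 (0.10) were nearest to Lbx1, Sec23a (0.05) and Zfp652 (0.06) to Mef2a, and Tsc1 (0.05) and Sptb (0.06) to Mef2c. For Mef2d the nearest were Tpr and Xpo7 (both 0.06, against 0.10). Pax7 had Prdm9 and Arhgap18 (both 0.20, against 0.30) and Myf5 had Asb3 (0.24) and Prepl (0.26, against 0.41).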

How the data were processed

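RNA of 12 libraries was made by poly-A selection from 200 ng of RNA, per the labels' protocols. The deposited table holds raw read counts per gene. For these the submitters' processing notes name GRCm38, featureCounts, STAR and bcl2fastq 2.17.1.14, without further versions, an annotation or the strand setting. The lowest mean count of a gene in the table is 10, so rarer genes are not analysed here. Columns were matched to groups by name.

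Counts were fitted with edgeR 4.0.16 in R 4.3.3 (TMM factors 0.916 to 1.12, default filter, 1 mean per group, all 12 libraries, quasi-likelihood F test, two-sided). Benjamini-Hochberg adjustment ran over 12751 genes in each of 5 contrasts, at a threshold of 0.05. Log2 fold changes have a prior count of 0.125. The fit was tested on simulated data. No pair of libraries within a group looked like a duplicate (chi-square per degree of freedom of 4.82 or more). Coordinates and exon lengths came from GENCODE M21 on GRCm38. Alternatives were DESeq2 1.42.0, limma-voom (limma 3.58.1), other scaling factors, no filter, replicate blocks, only the groups compared, and each library left out. Running them for the named genes of the lists was decided after seeing the data.

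The members and lists were chosen with earlier results of these data known. From each list of related genes the 3 smallest p-values in each direction among called genes were named, and at most 2 from each marker list. Similar profiles used log2 CPM with a prior count of 2, without members or symbols of predicted genes.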

Additional observations from a re-analysis of the deposited data

Results flagged for a closer look

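Myog and Lbx1 are given here because the difference between Dux and empty vector itself differed between the chows by the interaction term of edgeR's quasi-likelihood test. The interaction of Myog was 1.13 on the log2 scale (adjusted p = 0.0139), and its 3 DUX_DOX libraries were the highest of the 12. The interaction of Lbx1 was -0.63 (adjusted p = 0.00753). In Lbx1 the DUX libraries lay above those of EV, and the DUX_DOX libraries below those of EV_DOX. Both interactions were called in all 19 alternatives, with adjusted p from 0.0139 to 0.0414 for Myog and from 0.000474 to 0.0283 for Lbx1. Groups of 3 libraries are too small for the test of single outlying libraries.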

How the results depend on the processing

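Of the 9 genes, 5 were called in DUX_DOX against EV_DOX, and 3 to 5 when 1 library was left out. Myog and Myf6 were among them in every fit. The count was 3 without EV_DOX 2 (Myf6, Myog, Lbx1), EV_DOX 3 (Myf6, Myod1, Myog), DUX_DOX 1 or DUX_DOX 3 (both Myf6, Myog, Lbx1). In DUX_DOX against DUX 3 genes were called, and 3 or 4 with 1 library left out. In the interaction 2 were called, and 2 or 3. In DUX against EV the count was 0, and 1 (Mef2c) in DESeq2. In EV_DOX against EV it was 0, 1 (Lbx1) in DESeq2, and 0 or 1 with 1 library left out. The other 90 recomputed counts of called members stayed within 1.5 times the reported ones.

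Sign changes occurred in 25 refits, all of them with 1 library left out and all in values that were not called. The ranges with 1 library left out were -0.11 to 0.027 for Mef2d in DUX_DOX against EV_DOX. Against DUX they were -0.50 to 0.084 for Pax7, -0.47 to 0.083 for Myf5 and -0.13 to 0.066 for Mef2c. In DUX against EV they were -0.007 to 0.28 for Pax7, -0.036 to 0.22 for Myf6, -0.13 to 0.073 for Myog and -0.079 to 0.036 for Mef2d. For Myf5 in EV_DOX against EV the range was -0.27 to 0.18. In the interaction they were -0.37 to 0.19 for Myf5 and -0.083 to 0.059 for Mef2d.

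With the replicate number as a block, the count of called members stayed at 5 in DUX_DOX against EV_DOX, 3 against DUX, 0 in DUX against EV, 0 in EV_DOX against EV and 2 in the interaction. With the block within chow it was 4 in DUX_DOX against EV_DOX, where Mef2a was not called (adjusted p = 0.0615). Same-numbered libraries of different groups had correlated deviations from -0.42 to 0.20. Between the 2 vectors on the same chow these ran from -0.11 to 0.18. The correlations over all genes do not show that the numbers pair the libraries. Slow fibre Myh7 was high in both EV_DOX 2 and DUX_DOX 2 (116 and 69.3 CPM, against 1.24 to 6.42 CPM in all others). Whether any libraries share a mouse was not tested. The fit of only the groups compared was not run for the interaction, which uses all 4. Depth limits Myf5 (12 to 32 counts per library), Pax7 (35 to 77) and Myog (32 to 109).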
